A study of Mus musculus with 2 samples.

Results

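The desmosome genes are 10 mouse genes (Dsg2, Dsg3, Dsg4, Dsc2, Dsc3, Dsp, Jup, Perp, Pkp1 and Pkp3), out of 21887 protein-coding genes placed on the same annotation. They were described by the chromatin contacts called at their ends, in keratinocytes of the hair matrix, the epithelium at the base of the follicle whose dividing cells build the hair shaft. The mice were at postnatal day 4.5. The first group, here DKO, had Tet2 and Tet3 deleted with a Cre recombinase driven by Krt14 (genotype Tet2/Tet3 DKO, Krt14-Cre), and the second was wild type (WT). TET2 and TET3 oxidise 5-methylcytosine in DNA. Krt14 is a keratin of basal epithelial cells, so the Cre acts from that layer onward. Each genotype had 1 Hi-C library from sorted primary cells. The labels do not say how many animals were pooled, how the cells were sorted, or whether the WT mice carried the Cre. Hi-C joins pieces of DNA that are neighbours in the fixed nucleus and counts the joined pairs.

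Desmosomes are the junctions that rivet epithelial cells to each other and hold the keratin network under tension. Desmogleins (Dsg) and desmocollins (Dsc) are the cadherins that bind between cells. Plakoglobin (Jup) and the plakophilins (Pkp) bind the inner tails of the cadherins, desmoplakin (Dsp) ties this plaque to keratin filaments, and Perp is a membrane protein of the same junctions. The hair shaft depends on them, and mouse lines without Dsg3 or Dsg4 lose or break their hair.

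A member's contacts were taken as its pixels. A pixel is a pair of 5 kb bins, called anchors, with more observed contacts than their surroundings predict, and the deposited lists hold called pixels alone. A pixel belonged to a gene where an anchor bin lay within 10 kb of either annotated gene end. Enrichment is observed contacts over those expected from the donut-shaped neighbourhood of the pixel. The intervals after it are exact 95% Poisson intervals of the observed count, which cover counting error only. They make no allowance for pixels being listed only where their count was high against the expected count. Pixels whose anchors lay within 20 kb of each other on each side were joined into a loop. With 1 library per genotype no test was possible, and a difference below is one between 2 lists that cannot be told apart from a difference between libraries.

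The promoters of Dsp and Jup are shown because they place the start of each gene relative to its anchors. They were the 2 members of 10 found in the RefSeq promoter table (GRCm38.p6). Each line gives the 250 bases before the start in that table, 5′ to 3′, with CpG dinucleotides in capitals. Whether these are methylated was not measured. For Jup that start, 100397790, lies inside the gene as placed below, which ends at 100397839. The last bases of its line are therefore within the gene.
Dsp, chr13:38151044-38151293, plus strand: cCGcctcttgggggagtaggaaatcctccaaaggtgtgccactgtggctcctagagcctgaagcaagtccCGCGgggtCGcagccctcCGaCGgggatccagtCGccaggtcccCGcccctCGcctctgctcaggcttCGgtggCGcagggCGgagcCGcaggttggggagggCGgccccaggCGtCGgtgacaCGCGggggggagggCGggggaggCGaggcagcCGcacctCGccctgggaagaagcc
Jup, chr11:100397791-100398040, minus strand: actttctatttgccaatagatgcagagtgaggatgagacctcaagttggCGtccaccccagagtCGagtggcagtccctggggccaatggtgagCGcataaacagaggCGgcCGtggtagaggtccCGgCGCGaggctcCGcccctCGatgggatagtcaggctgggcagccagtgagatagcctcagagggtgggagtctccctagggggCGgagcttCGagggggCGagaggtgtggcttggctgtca
The Dsp window held 22 CpG and was 72.4% G or C, and the Jup window held 13 CpG and was 62.0% G or C. Over 32851 promoter windows of this length the median was 6 CpG (quartiles 2 and 16) and 52.4% G or C. A GC box, GGGCGG on either strand, occurred 4 times before Dsp and 2 times before Jup, and 32.7% of all windows held at least 1. A core of the CTCF motif was matched before Jup by CCTCAAGTTGGC, from 212 to 201 bases before the start, on the strand printed. It was found nowhere in the Dsp window, and 7.17% of all windows held it on either strand. The TCF/LEF core CTTTGA, the AP-1 site TGANTCA and the p53 family motif were in neither window on either strand. Of all windows, 13.8% held the TCF/LEF core, 6.75% the AP-1 site and 0.490% the p53 family motif. A match is a run of letters and not a measured binding site. Neither window lay inside an anchor bin. By this table the start of Jup was 2.21 kb from the nearest anchor bin and that of Dsp 3.71 kb. The upper end of Jup as placed below was 2.16 kb from the same bin.

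Of the 10 genes, 8 had a pixel in at least 1 list, against 28.3% of all protein-coding genes. In DKO 7 members had a pixel (Dsg2, Dsg3, Dsg4, Dsp, Perp, Pkp1 and Pkp3), where 20.1% of all genes had 1. In WT 4 members did (Dsp, Jup, Perp and Pkp1), where 21.2% of all genes did. Dsp, Perp and Pkp1 were in both lists (12.9% of all genes), Dsg2, Dsg3, Dsg4 and Pkp3 in the DKO list alone (7.14%), and Jup in the WT list alone (8.24%). Dsc2 and Dsc3 were in neither. The genes are not separate observations, because Dsg2, Dsg3 and Dsg4 shared a single DKO pixel. They were also chosen with earlier results of these data known. The counts therefore only describe these genes, and whether desmosome genes have more pixels than others was not tested. Counted without repeats there were 14 DKO pixels in 5 loops and 12 WT pixels in 4 loops, with Poisson intervals of 7.65 to 23.5 and 6.20 to 21.0 pixels. These intervals treat each pixel as a separate event. Neighbouring pixels of a loop are not separate, so the intervals are too narrow. Both libraries listed 7 of these pixels, all in the loops at Perp and Pkp1. Over the whole lists both libraries listed 1940 pixels, out of 4872 in DKO and 5811 in WT.

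**Figure D1:**
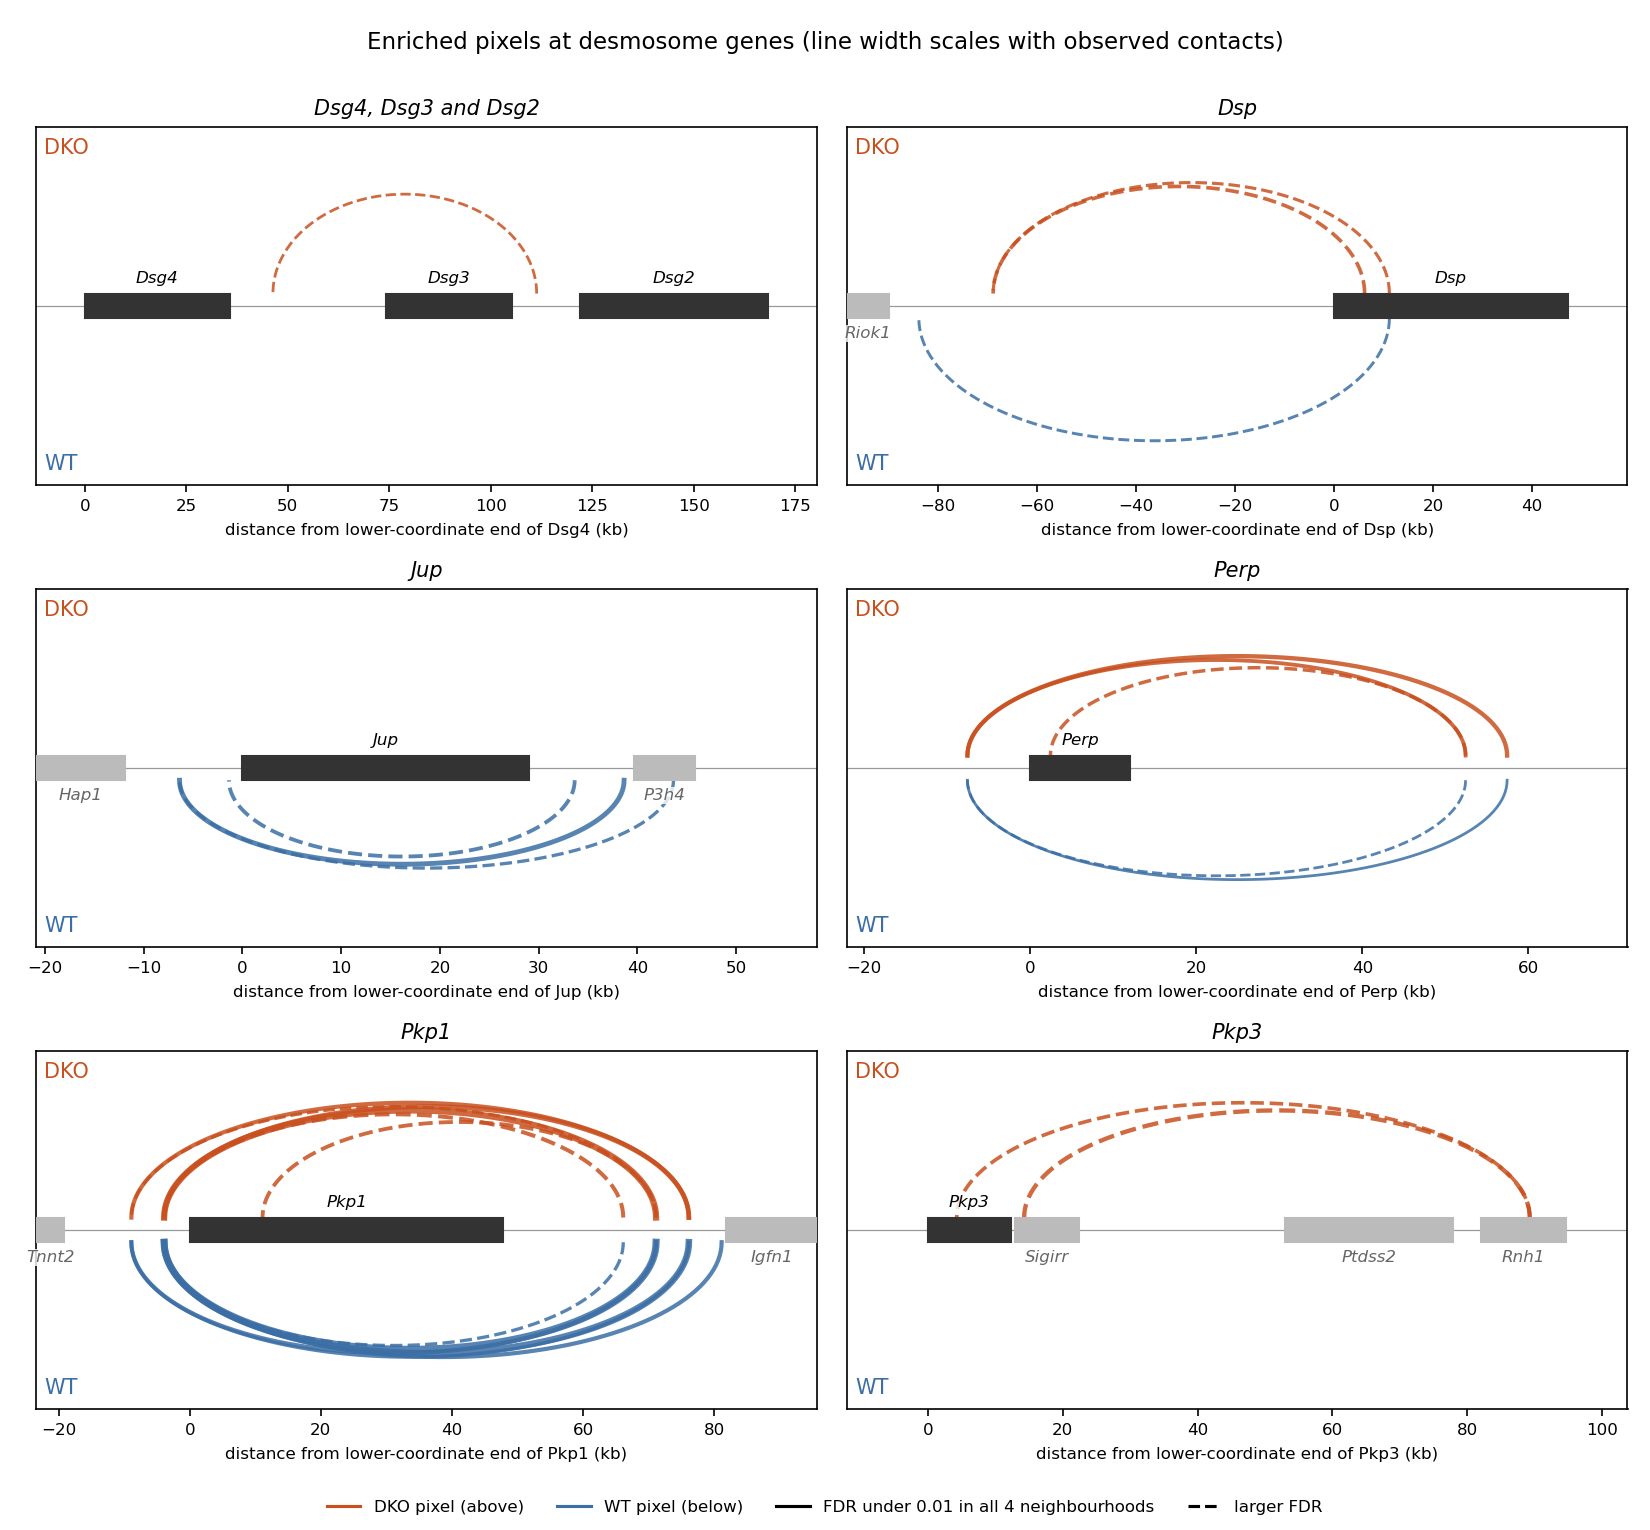
Pixels at the desmosome genes, drawn as arcs between the middles of the anchor bins, with DKO above and WT below each gene. The horizontal axis is the distance in kb from the end of lower coordinate of the first gene named, dark boxes are desmosome genes, grey boxes are some of their neighbours (cut off at the panel edge), line width scales with observed contacts, and arc height has no scale. Solid arcs have an FDR under 0.01 in all 4 neighbourhoods. Arcs recur in both lists at Perp and Pkp1, Dsp has arcs to different bins in each, and Dsg, Pkp3 and Jup have arcs in 1 list.

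The whole DKO list held 4872 pixels and the WT list 5811, with a lowest observed count of 10 and a median of 18 contacts in each. At the 1940 pixels listed in both, the expected count in DKO had a median of 0.973 times that in WT (quartiles 0.904 and 1.05). The lists hold no transcript levels, so the cell type and the deletions could not be checked against markers.

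Of the desmosomal cadherins, 3 desmogleins had a DKO pixel and the desmocollins had none. Dsg4, a desmoglein of the hair shaft (chromosome 18, 20436175 to 20471821), Dsg3 (20510274 to 20541310) and the widely expressed Dsg2 (20558074 to 20604526) follow each other on the chromosome. The pixel joined bin 20480001 to 20485000, between Dsg4 and Dsg3, with bin 20545001 to 20550000, between Dsg3 and Dsg2. It thus flanked Dsg3 over a span of 65 kb. It had 16 observed contacts on 3.91 expected, an enrichment of 4.09 (2.34 to 6.65). Its largest FDR over the 4 neighbourhoods was 0.0380. The WT list had no pixel there. The bins lay 8.18 kb from the end of Dsg4, 3.69 kb from that of Dsg3 and 8.07 kb from that of Dsg2, so Dsg4 and Dsg2 were reached only near the limit of 10 kb. Over all members the farthest anchor inside the limit lay 8.71 kb from an end of Dsp, and the nearest outside it 10.1 kb from Perp.

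The desmocollin genes Dsc3 (19960930 to 20002410) and Dsc2 (20030633 to 20059554) lie in the same cadherin locus. For Dsc2 the nearest anchor of any pixel was 420 kb away in the DKO list and 1070 kb in the WT list. For Dsc3 it was 478 kb away in DKO and 1128 kb in WT. The locus of 9 cadherin genes, from Dsc3 to Dsg2, is 644 kb long. It held an anchor of 1 DKO pixel and of 0 WT pixels, out of 163 DKO and 197 WT pixels on chromosome 18, and no pixel of either list spanned it.

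Dsp (chromosome 13, 38151294 to 38198577) encodes desmoplakin, and its anchors lay inside the gene, past its start. Each list paired them with a bin upstream, but not with the same bin. In DKO the bin 38155001 to 38160000, which begins 3.71 kb into the gene, was joined over 75 kb to bin 38080001 to 38085000. This pixel had 21 contacts at 4.16 times the expected count (2.57 to 6.35). A second DKO pixel joined the next bin of the gene, 38160001 to 38165000, to the same partner over 80 kb, with 18 contacts at 3.58 times expected. In WT that bin of the gene was joined over 95 kb to 38065001 to 38070000, with 17 contacts at 3.93 times expected (2.29 to 6.29).

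The WT partner of Dsp lay 3.57 kb from the end of Riok1, a kinase gene of ribosome maturation, and the DKO partner 18.6 kb from it, with no annotated gene of any kind closer. The upstream bins were 15 kb apart, 3 bins, so the loops did not match within 2 bins (10 kb) and did within 5 (25 kb). The intervals of enrichment overlapped. The largest FDR was 0.0230 and 0.0386 at the DKO pixels and 0.0722 at the WT pixel.

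Jup (chromosome 11, 100368856 to 100397839, minus strand) encodes plakoglobin, a catenin that also serves adherens junctions. Its 3 pixels were in the WT list, and the nearest DKO anchor lay 68.9 kb from the gene. The WT pixel of most contacts joined bin 100360001 to 100365000 with bin 100405001 to 100410000 over 45 kb, so that it flanked the whole gene. It had 28 contacts at 4.21 times expected (2.80 to 6.09) and a largest FDR of 0.000800. The next joined the first of these bins to 100410001 to 100415000 with 19 contacts, at 4.03 times expected. The third ran over 35 kb from bin 100365001 to 100370000, which holds the 3′ end of Jup, to bin 100400001 to 100405000, just upstream of its start. It had 22 contacts at 2.79 times expected, the lowest enrichment of any pixel at a desmosome gene. Its span is also the shortest in either list.

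The pixels of Jup were shared with its neighbours. All 3 lay within 10 kb of an end of Hap1, which encodes a huntingtin-associated protein, and of P3h4, a gene of collagen modification. Fkbp10, a collagen chaperone gene, shared 2 and Nt5c3b shared 1. These contacts therefore cannot be assigned to Jup rather than to the genes around it.

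Pkp1 and Pkp3 encode plakophilins, which cluster the cadherins and desmoplakin in the plaque. Pkp1 (chromosome 1, 135871394 to 135919207) had the most pixels of the 10 genes, 6 in DKO and 6 in WT, forming 1 loop in each. Genes with a pixel had a median of 1, and 4.35% of them in DKO and 6.52% in WT had 6 or more. The highest pixel was at the same place in both lists, bins 135865001 to 135870000 and 135940001 to 135945000, a span of 75 kb. It had 36 contacts in DKO, at 6.94 times expected (4.86 to 9.61), and 41 contacts in WT, at 7.78 times expected (5.58 to 10.5). These enrichments stood at percentile 83.0 of the DKO list and 88.3 of the WT list. With the vertical neighbourhood, whose expected count was the largest of the 4, they were 4.36 in DKO, below the interval above, and 5.77 in WT. The first anchor lies 1.39 kb below the lower end of the gene and the second 20.8 kb above the upper end, so the contact flanks Pkp1.

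Both libraries listed 5 of the Pkp1 pixels. In DKO they had 18, 24, 23, 36 and 28 contacts, and in WT, in the same order, 25, 20, 19, 41 and 38. The sixth DKO pixel started inside the gene, at 135880001, and ran over 60 kb with 22 contacts, at 3.30 times expected. The sixth WT pixel reached farther out, to the bin 135950001 to 135955000, which holds the end of Igfn1, with 24 contacts at 5.17 times expected. Igfn1, a gene known from skeletal muscle, had an end within 10 kb of 10 of the 12 Pkp1 pixels over both lists. Tnnt2, the cardiac troponin T gene, had 1 at 4 of them.

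Pkp3 (chromosome 7, 141078229 to 141090511) had 2 DKO pixels and no WT pixel. Both ended in bin 141165001 to 141170000, inside Rnh1, the ribonuclease inhibitor gene, and within 10 kb of Ptdss2, a phosphatidylserine synthase gene. The pixel from bin 141090001 to 141095000, which holds an end of Pkp3, spanned 75 kb and had 25 contacts at 3.59 times expected (2.32 to 5.29). The pixel from bin 141080001 to 141085000, inside Pkp3, spanned 85 kb and had 21 contacts at 3.73 times expected. Sigirr, a gene of the interleukin-1 receptor family next to Pkp3, shared both pixels, as did Rnh1 and Ptdss2. B4galnt4 and Ano9 shared 1 each. The RefSeq table places a start of Rnh1 inside the partner bin. The largest FDR was 0.0919 at the first of these pixels, close to the limit of 0.1 that the lists obey, and 0.0209 at the second. The nearest WT anchor lay 23.2 kb from Pkp3.

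Perp (chromosome 10, 18845071 to 18857073), a target of p63 and p53, had 3 DKO pixels and 2 WT pixels. In both lists bin 18835001 to 18840000, 5.07 kb below the lower end of the gene, was joined to 2 neighbouring bins on the far side of it. The pixel to 18900001 to 18905000, over 65 kb, had 25 contacts in DKO at 6.64 times expected (4.30 to 9.80), and 16 in WT at 5.47 times expected. The pixel to 18895001 to 18900000, over 60 kb, had 22 contacts in DKO at 4.33 times expected, and 16 in WT at 3.74 times expected (2.14 to 6.08). The remaining DKO pixel joined this last bin to 18845001 to 18850000, which holds an end of Perp, with 20 contacts at 3.31 times expected. The far bins held no gene end within 10 kb, and Perp itself, 37.9 kb and 42.9 kb away, was the nearest annotated gene. No other protein-coding gene shared the pixels of Perp, and the near anchor overlapped a long noncoding RNA gene, Gm32926.

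**Figure D2:**
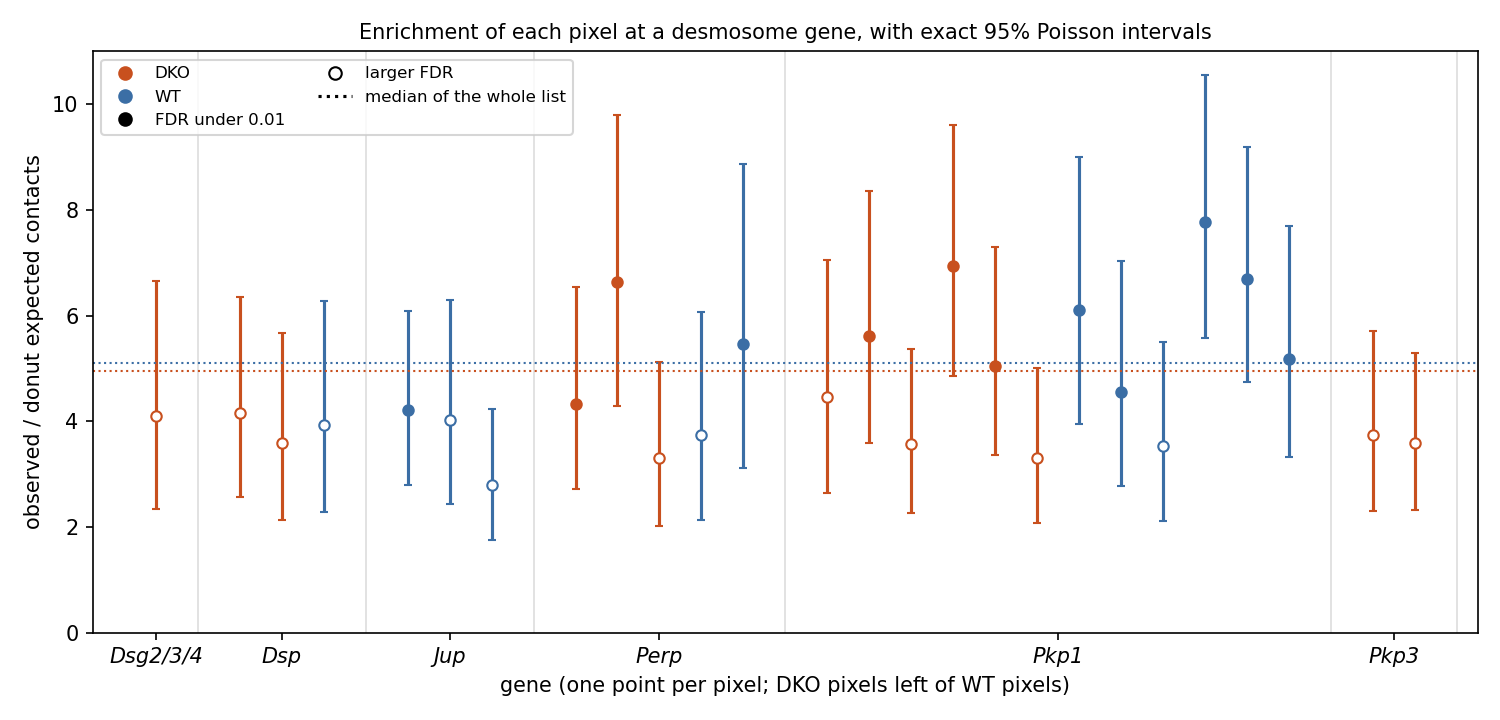
Enrichment (observed over donut expected contacts, vertical axis) of each pixel at a desmosome gene, DKO pixels left of WT pixels within a gene, with exact 95% Poisson intervals that cover counting error only. Filled points have an FDR under 0.01 in all 4 neighbourhoods, and dotted lines are the medians of all pixels of each list, 4.95 in DKO and 5.11 in WT. The highest points are at Pkp1 in both lists and at Perp in DKO.

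At the 7 pixels listed in both libraries, the contacts at Perp were higher in DKO at 2 of 2 pixels and those at Pkp1 at 2 of 5. The DKO/WT ratio of enrichment at Perp was 1.16 (0.580 to 2.36) over 60 kb and 1.21 (0.623 to 2.43) over 65 kb. The highest Pkp1 pixel had a ratio of 0.893 (0.554 to 1.43), and the lowest Pkp1 ratio was 0.732 (0.376 to 1.40). Every interval held a ratio of 1. So did the intervals of nearly all 1940 pixels listed in both, of which 1.6% left out 1. Since so few intervals left out 1, this cannot show whether the 7 pixels, from the loops at Perp and Pkp1, differ from the rest. Only pixels called in both lists enter here, which leaves out pixels called in 1 list alone. Summed over the pixels in both lists, Perp had 47 contacts in DKO and 32 in WT. Divided by the summed expected counts, this gave a DKO/WT ratio of 1.20 (0.747 to 1.94). Pkp1 had 129 contacts in DKO and 143 in WT, with a DKO/WT ratio of 0.879 (0.687 to 1.12). Neighbouring pixels belong to 1 loop, so they are not separate observations of a contact. The median ratio over the 7 pixels was 1.01, and over all 1940 it was 0.983 (quartiles 0.841 and 1.15). Counting error alone thus leaves DKO/WT ratios from 0.747 to 1.94 possible for the Perp sum and from 0.687 to 1.12 for the Pkp1 sum. Expected counts at the Perp pixels were also higher in DKO, 1.19 and 1.29 times those in WT.

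**Figure D3:**
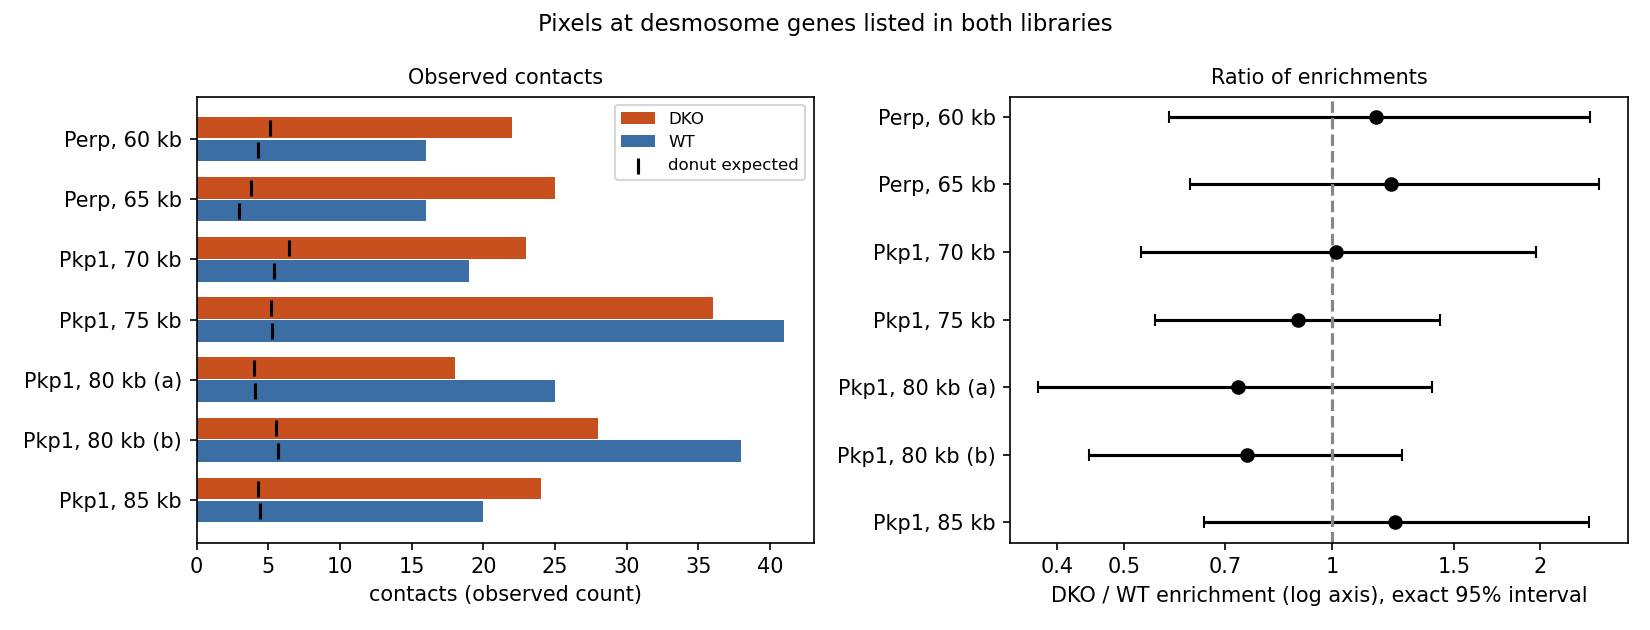
Pixels at Perp and Pkp1 listed in both libraries, named by gene and span (the 80 kb pixel marked a starts at 135860001 and b at 135865001). The left panel gives observed contacts in DKO (upper bar) and WT (lower bar) with the donut expected count as a tick, and the right panel the DKO/WT ratio of enrichments on a log axis with exact 95% intervals. All 7 intervals cross the dashed line at 1.

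The pixels of the desmosome genes were short. They spanned 50 to 85 kb in DKO and 35 to 95 kb in WT, with medians of 75 and 72.5 kb, against medians of 100 and 115 kb for all pixels of the DKO and WT lists. None of the 14 DKO or 12 WT pixels was above the median span of its list, but they form only 5 and 4 loops. Short spans were also usual at the genes of other junctions described below. Their highest DKO pixels spanned 35 to 95 kb, except at Cldn1 (115 kb). Their highest WT pixels also spanned 35 to 95 kb, except at Cldn1 (135 kb), Ppl (165 kb), Ctnna1 (170 kb) and Ctnnb1 (335 kb). Pixels of up to 95 kb made up 47.9% of the DKO list and 41.6% of the WT list. Observed counts were 16 to 36 contacts in DKO and 16 to 41 in WT, with medians of 22 and 21. Enrichment had a median of 4.13 in DKO and 4.38 in WT, against 4.95 and 5.11 in the whole lists. Short pixels of the whole lists were also less enriched. Those of up to 95 kb had a median of 4.13 in DKO and 4.19 in WT, and 7 of 14 DKO and 7 of 12 WT pixels of the desmosome genes were above it.

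**Figure D4:**
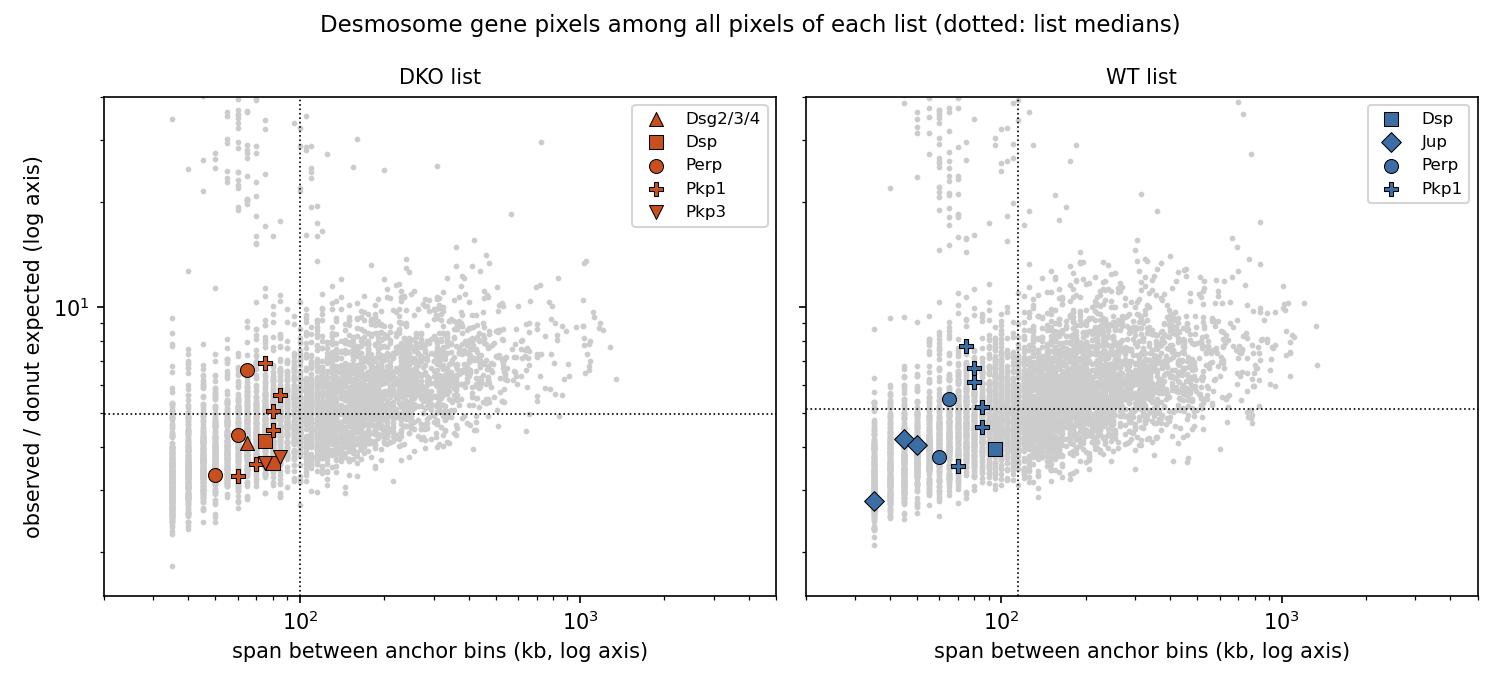
Span between anchor bins (kb, log axis) against enrichment (log axis) for every pixel of the DKO list (left) and the WT list (right) in grey, with pixels at desmosome genes as coloured symbols. Dotted lines are list medians, and 50 DKO and 33 WT pixels of enrichment over 40 lie outside the panels. All coloured symbols lie left of the median span.

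Some of the contacts flanked the gene. In DKO 3 of the 7 genes with a pixel were flanked whole by 1 or more of their own pixels (Dsg3, Perp and Pkp1), against 23.9% of all genes with a pixel. In WT 3 of 4 were (Jup, Perp and Pkp1), against 23.2%. This concerned 8 of 14 DKO pixels, 5 of them at Pkp1, and 10 of 12 WT pixels, 6 of them at Pkp1. The Dsp and Pkp3 pixels instead ran from inside or at the edge of the gene to 1 side.

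DKO had more members with a pixel than WT under every rule below except the filter on FDR. With an FDR under 0.01 in all 4 neighbourhoods, 2 members remained in DKO, Perp and Pkp1, and 3 in WT, Jup, Perp and Pkp1. The same filter left 9.51% of all genes in DKO and 10.8% in WT. No pixel at a desmoglein, Dsp or Pkp3 passed it in either list. It kept 5 of the 14 DKO pixels and 7 of the 12 WT pixels, while 41.3% of all DKO and 43.0% of all WT pixels passed. With at least 20 observed contacts, Dsp, Perp, Pkp1 and Pkp3 were left in DKO, where 9.48% of all genes were, and Jup and Pkp1 in WT, where 10.7% were. With a gene end inside the anchor bin itself, Perp and Pkp3 were left in DKO, where 9% of all genes were, and Jup in WT, where 9.44% were. Within 5 kb there were 5 members in DKO, where 15.9% of all genes had a pixel, and 2 in WT, where 16.3% did. Within 20 kb the members stayed at 7 in DKO and 4 in WT, while the shares of all genes were 26.1% in DKO and 28.1% in WT. With anchors anywhere in the gene body they also stayed at 7 in DKO and 4 in WT, against 22.4% of all genes in DKO and 23.7% in WT.

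**Figure D5:**
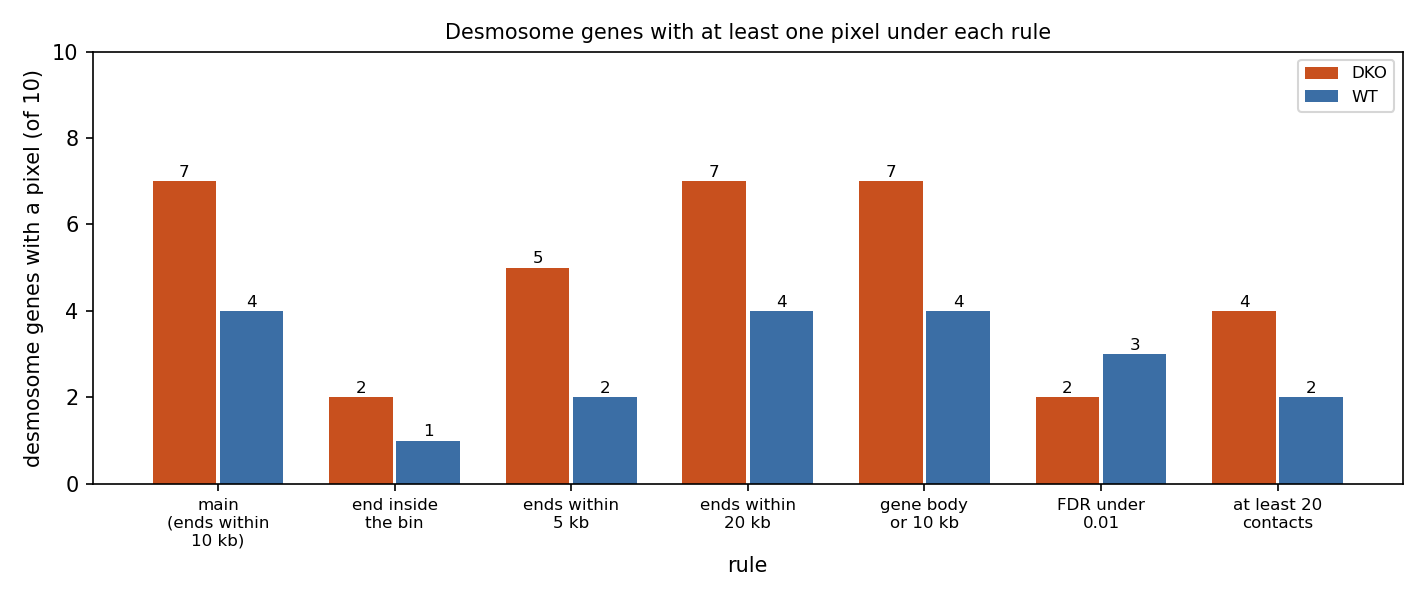
Number of the 10 desmosome genes with at least 1 pixel (vertical axis) in DKO (left bars) and WT (right bars) under each rule on the horizontal axis. At an FDR under 0.01 DKO has 2 and WT 3. The 7 DKO genes under the 10 kb, 20 kb and gene body rules count the shared desmoglein pixel 3 times and rest on 5 loops, against 4 in WT.

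Genes of other junctions were placed by the same rule, from 5 lists with 48 genes. Of these, 13 had a pixel in DKO and 13 in WT, 11 of them in both. Among all protein-coding genes the shares were 20.1% in DKO, 21.2% in WT and 12.9% in both. The same shares apply to each list below. None of the 6 other desmosome family genes (Dsg1a, Dsg1b, Dsg1c, Dsc1, Pkp2 and Pkp4) had a pixel in either list. Of 14 plakins and partner keratins 5 had pixels, and all 5 had them in both lists. Krt14, the basal keratin, had 5 in DKO and 2 in WT. Plec, the gene of plectin, had 3 in each, the keratin gene Krt10 had 3 in DKO and 2 in WT, and Evpl, the gene of envoplakin, had 1 in DKO and 2 in WT. The highest Krt10 pixel had 27 contacts in DKO at 6.54 times expected (4.31 to 9.52), and 22 in WT at 7.63 times (4.78 to 11.6). Ppl, the gene of periplakin, had 1 pixel in each list.

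Of 10 adherens junction genes 4 had pixels in DKO and 5 in WT, 3 of them in both. Nectin2, an adhesion receptor gene, had 4 pixels in DKO and 5 in WT. Its highest had 50 contacts in DKO at 6.82 times expected (5.06 to 9.00), and 49 in WT at 6.80 times (5.03 to 8.98). Cdh3, the gene of P-cadherin, had 5 pixels in DKO and 1 in WT, and Ctnnd1, the gene of p120 catenin, 3 in DKO and 2 in WT. Cdh1, the gene of E-cadherin, had 2 in DKO and 0 in WT, and its highest DKO pixel, with 27 contacts over 40 kb at 2.94 times expected (1.94 to 4.28), was also the highest of Cdh3. Ctnna1 and Ctnnb1 had 1 pixel each in WT alone. Of 9 tight junction genes, Cldn1 had 1 pixel in each list, with 24 contacts in DKO and 14 in WT. Of 9 hemidesmosome genes, the integrin genes Itgb4 and Itga3 had pixels in both lists and Cd151, a tetraspanin gene, had 3 in DKO alone. Pkp2, Pkp4, Ppl, Ctnna1 and Ctnnb1 were named after their values were seen.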

How the data were processed

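Hi-C was run on sorted hair matrix keratinocytes, 1 library per genotype. Per the file headers, juicer_tools 1.22.01 wrote each list. The build was GRCm38 (mm10) and Juicer was used, per the submitters' processing notes. Neither aligner, read filters nor depth of sequencing are given in the sources used here. The authors deposited, for each called pixel, the observed contact count (raw), expected contacts of 4 neighbourhoods (a signal on the scale of the counts), a score giving the bin of expected values used for each test, and q-values as FDRs, all under 0.1. Pixels that were not called are not recorded, so absence from a list is not absence of contact.

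Gene ends were read from RefSeq's GRCm38.p6 annotation, and all 10 members and 48 list genes were found. The table gives no exons or UTRs. Coordinates are 1-based. Depth was compared through expected counts, since sums over called pixels are not depths. Ratios have exact conditional binomial intervals. A contact matched the other list at the exact pixel, and a loop within 2 bins. Members and lists were chosen with earlier results of these data known. Named were all members, genes at partner anchors or sharing pixels, and up to 4 genes per list with most pixels. Alternatives were distances of 0, 5 and 20 kb, anchors in gene bodies, an FDR under 0.01, at least 20 contacts, other matching and linkage distances, removal of weak 1-pixel loops, and other expected counts. The placing of long genes at their lower end, the linkage, and the ratio intervals for counts of equal mean were tested on simulated data. The Poisson intervals and the placing of short genes were not. Python 3.11.15, pandas 2.3.3 and scipy 1.17.1 were used.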

Additional observations from a re-analysis of the deposited data

How the results depend on the processing

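No paired analysis was possible because there is only 1 library of each genotype and nothing was tested, and no replicate could be left out. The alternatives gave 200 values. Of these, 151 remained inside the counting interval (counts: a factor of 1.5) and 49 moved. With the gene end inside the anchor bin, 2 members, 2 pixels and 2 loops were left in DKO, 1 member, 1 pixel and 1 loop in WT, and 0 pixels in both. Within 5 kb there were 8 DKO and 7 WT pixels, 3 of them in both, with 5 members in DKO and 2 members and 2 loops in WT. The shares of all genes under each of these rules stand beside the members' counts above. An FDR under 0.01 left 2 members, 5 pixels and 2 loops in DKO, 7 pixels in WT and 4 pixels in both. At least 20 contacts left 4 members in DKO, 2 members, 7 pixels and 2 loops in WT, and 3 pixels in both. Of the 48 genes of the other lists, 7 in DKO and 6 in WT were left with the end inside the bin, and 7 in DKO and 6 in WT at an FDR under 0.01. Within 20 kb, and also with anchors in gene bodies, 20 had a pixel in WT, where 28.1% and 23.7% of all genes did. The highest Pkp1 enrichment in DKO was 4.36 with the vertical expected count, which was also the largest of the 4. The cause of these shifts was not tested, beyond the fewer or more pixels each rule admits. The DKO/WT ratio changed side of 1 at the 65 kb Perp pixel (0.954 to 1.61) and the 70 kb Pkp1 pixel (0.954 to 1.24). Counts of 16 to 36 contacts per pixel of a desmosome gene in DKO and 16 to 41 in WT limit what can be seen, and no value has a replicate error.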

Other observations

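The surroundings of Pkp3 held pixels that the 10 kb rule did not take. A DKO pixel of 335 kb, from bin 140840001 to 140845000 to bin 141175001 to 141180000, enclosed the gene, with 13 contacts at 7.98 times expected (4.25 to 13.6) and no WT pixel within 2 bins. Below the gene, bins 23.2 and 28.2 kb away had 3 DKO and 2 WT pixels. The pixel from 140845001 to 141050001, over 205 kb, was listed in both, with 15 contacts in DKO at 5.39 times expected (3.02 to 8.89), and 14 in WT at 4.33 times (2.37 to 7.26).

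At Perp a DKO pixel 10.1 kb from the gene, from bin 18830001 to bin 18905001 over 75 kb, belonged to the same loop as the pixels described above. It had 16 contacts at 5.48 times expected (3.13 to 8.89).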
